A study of Mus musculus with 4 samples.

Results

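A set of 10 immediate early genes and phosphatases of the ERK response was examined, namely Fos, Fosl1, Jun, Egr1, Ier2, Ier3, Dusp1, Dusp4, Dusp5 and Dusp6. They were taken by name from the deposited gene tables, in which all 10 of the 10 names had 1 row each among 23358 gene rows. The tables describe 2 clonal mouse lines of progenitors of the interstitial cells of Cajal (ICC), the pacemaker cells of gut muscle, each with 2 libraries of polyadenylated RNA. 2xSCS70 was derived from the gastric tunica muscularis of H-2Kb-tsA58 mice, whose cells make the SV40 large T antigen in a temperature-sensitive form from an interferon-inducible promoter, and was kept at 39.5 °C without interferon-gamma. 2xSCS2F10 was derived from the same tissue of C57BL/6J mice and was kept at 37 °C with 5% chick embryo extract. Both lines were grown in the same neural stem cell proliferation medium. Each line is a single clone, so that clone, strain, transgene, temperature and extract changed together and their parts in a difference cannot be told apart. Whether the 2 libraries of a line stem from separate cultures is not stated in the labels, and the p-values therefore reflect library-to-library spread that could be technical.

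Immediate early genes are transcribed within minutes of a growth factor or stress signal, without new protein synthesis. The signal runs from receptor tyrosine kinases through Ras, Raf and MEK to the ERK kinases, which activate transcription factors at promoters of genes such as Fos and Egr1. The products of some of these genes are transcription factors of the next wave, while the dual-specificity phosphatases, which remove phosphate from both threonine and tyrosine of the kinases, close a feedback loop. Many of these transcripts are short-lived, and their level in a growing culture also follows handling, feeding and temperature.

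The libraries held 24485632 and 22368504 fragments in genes for 2xSCS70 and 20159986 and 22549451 for 2xSCS2F10. Across all genes the replicates of 2xSCS2F10 differed more than those of 2xSCS70, with a median absolute log2 difference of 0.29 against 0.13. Markers of ICC and of other cell types moved with the line. Kit, the receptor of mature ICC, had at most 1 fragment in any library, and Ano1, their chloride channel, was 9.96-fold lower in 2xSCS70 (2.29 and 2.55 CPM, against 29.8 and 18.4 CPM in 2xSCS2F10, adjusted p = 0.00219). Etv1, the other mature ICC marker, went the other way but did not pass (log2 1.65). It had 0.544 and 0.781 CPM in 2xSCS70, against 0.0514 and 0.367 CPM in 2xSCS2F10. Of 4 progenitor markers, Cd34 (log2 1.94, adjusted p = 0.012) and Cd44 (log2 1.13, adjusted p = 0.0069) were higher, Igf1r was lower (log2 -0.57, adjusted p = 0.0174) and Insr did not pass. Of 5 mesothelial markers all 5 were lower in 2xSCS70, with a summed level of 23.8 to 28.7 CPM in 2xSCS70 and 2446 to 2890 CPM in 2xSCS2F10. Of the neuronal markers, Uchl1 was lower (16.7 and 11.5 CPM in 2xSCS70, against 278 and 255 CPM in 2xSCS2F10) and Tubb3 higher (8.60 and 7.44 CPM in 2xSCS70, against 4.67 and 4.04 CPM in 2xSCS2F10, adjusted p = 0.0289), with Elavl4 at 0. Of 6 smooth muscle markers 5 were lower, with a summed level of 674 to 720 CPM in 2xSCS70 and 5023 to 8925 CPM in 2xSCS2F10. The 5 immune markers summed to 5.19 to 7.40 CPM in 2xSCS70 and 3.75 to 5.30 CPM in 2xSCS2F10, with Emr1 at 0 in all libraries and Ptprc at 0 in all but 2xSCS2F10 replicate 1. Of the 3 tested immune markers, Lyz2 (1.31 and 2.22 CPM in 2xSCS70, against 0.154 and 0.157 CPM in 2xSCS2F10, adjusted p = 0.00661) and Cd68 (adjusted p = 0.0407) were higher in 2xSCS70, and Csf1r did not pass (log2 -1.24, adjusted p = 0.0626). The endothelial markers summed to 4.11 to 4.86 CPM in 2xSCS70 and 5.80 to 9.34 CPM in 2xSCS2F10, with 1 higher and 1 lower. The glial markers summed to 1.52 to 1.78 CPM in 2xSCS70 and 0.997 to 1.18 CPM in 2xSCS2F10, with 1 higher. The part of these marker differences in the results below was not tested. Fewer cells of a kind and less RNA per cell cannot be told apart in such bulk libraries.

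Of the 10 genes, 6 were lower in 2xSCS70 (Fos, Ier3, Dusp1, Dusp4, Dusp5 and Dusp6), Fosl1 was higher, and Jun, Egr1 and Ier2 did not pass the test. The 4 phosphatases were thus all lower, by 1.70-fold to 4.79-fold. The test was edgeR's quasi-likelihood test across 14496 genes, with p-values adjusted by the Benjamini-Hochberg method at a threshold of 0.05. Against this count of 7 in 10, 40.6% of all tested genes passed, 18.8% as higher and 21.8% as lower. The 10 genes were chosen with earlier results of these data known, so their share of calls is a description and not independent of the choice. Values are given as counts scaled to library size (CPM) after TMM scaling for differences between lines, and as reads per kilobase scaled to library size (RPKM) where genes are compared with each other. In CPM the 2 lines did not overlap for 9 of the 10 genes, the exception being Jun, beside 77.4% of all tested genes. Most calls needed both 2xSCS70 libraries. Without 2xSCS70 replicate 1 or without its replicate 2, only Ier3 and Dusp1 passed, and 764 and 796 genes did in all, against 5888 with all 4 libraries. Without 2xSCS2F10 replicate 1, 2 of the 10 genes were higher and 6 lower, among 9673 called in all. Without 2xSCS2F10 replicate 2, 3 were higher and 7 lower, among 9074 in all. The 5888 were 2727 higher and 3161 lower, and on the authors' RPKM the split was 3218 and 1828 with a pseudocount of 1 and 3377 and 1964 with one of 0.1.

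**Figure D1:**
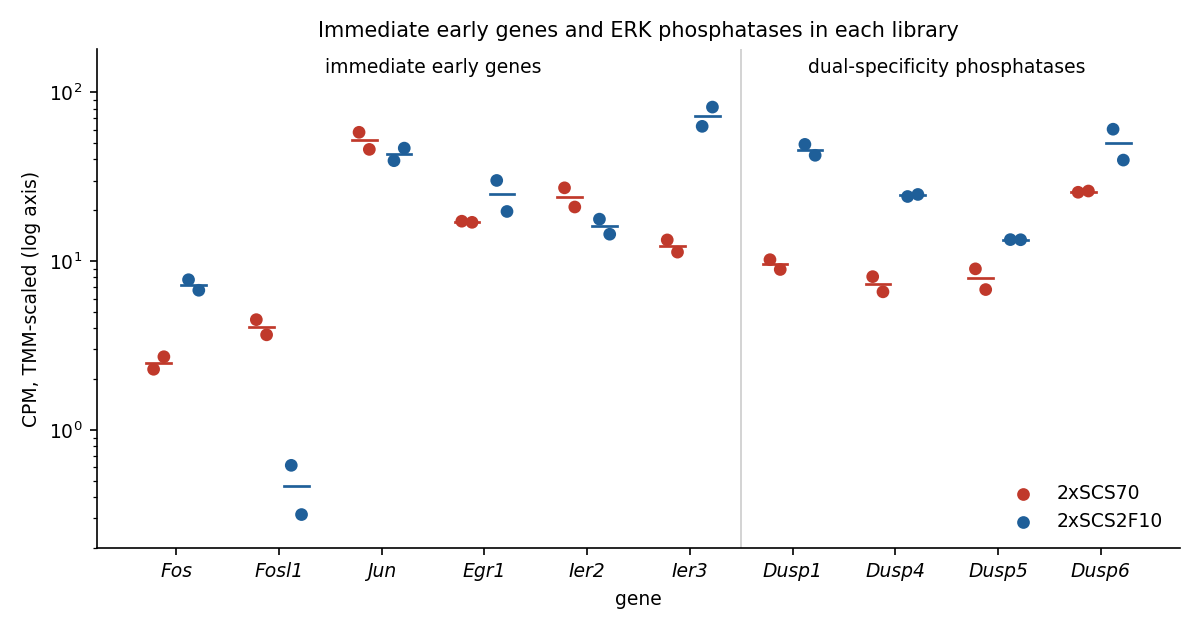
TMM-scaled CPM (log axis) of the 10 genes in each library, with 2xSCS70 in red at the left and 2xSCS2F10 in blue at the right of each gene; points are libraries (replicate 1 left, replicate 2 right) and lines are means. Fosl1 is the only gene whose 2xSCS70 values lie far above those of 2xSCS2F10, while Fos, Ier3 and the 4 phosphatases lie below them.

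Among the AP-1 factors, Fos and Fosl1 moved in opposite directions. Fos encodes the leucine zipper protein that pairs with Jun proteins and is the classical rapid response gene (chromosome 12, 85473901 to 85477270, plus strand, mm10). It had 2.29 and 2.71 CPM in 2xSCS70 (63 and 66 fragments), against 7.76 and 6.72 CPM in 2xSCS2F10 (151 and 128 fragments), or 2.5 ± 0.302 and 7.24 ± 0.735 CPM on average (SD, n = 2 each). Both 2xSCS70 libraries were below both 2xSCS2F10 libraries, and each pair agreed within counting error. The difference was 2.90-fold (log2 -1.53, SE 0.23, adjusted p = 0.00829). The call ended without 2xSCS70 replicate 1 (adjusted p = 0.119) and without its replicate 2 (0.0994), and on log2(RPKM + 1) values, which compress low levels, the difference was -0.79.

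Fosl1 encodes FRA-1, a Fos-related protein without the transactivation domain of Fos, whose transcription and protein stability are both known to depend on sustained ERK activity (chromosome 19, 5447698 to 5455938, plus strand). It had 4.50 and 3.66 CPM in 2xSCS70 (124 and 89 fragments), against 0.616 and 0.315 CPM in 2xSCS2F10 (12 and 6 fragments). The gene was thus low in both lines, but in 2xSCS2F10 it was close to the floor of 3 fragments, which stood at 0.154 and 0.157 CPM there. The difference was 8.70-fold (log2 3.12, SE 0.41, adjusted p = 0.00563), larger in size than that of 91.3% of tested genes. The call ended when either 2xSCS70 library was left out, with an adjusted p of 0.082 (replicate 1 out) and 0.0681 (replicate 2 out). The difference was 1.32 on log2(RPKM + 1) values. The row overlaps Ccdc85b on the opposite strand, and the library kit does not mark strand. Ccdc85b had 31.4 and 25.4 CPM in 2xSCS70 and 18.6 and 20.7 CPM in 2xSCS2F10 (log2 0.53, adjusted p = 0.056), and reads in the overlap cannot be assigned to either gene by strand.

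Jun, the partner that Fos proteins need to bind DNA with high affinity, did not pass the test (chromosome 4, 95049036 to 95052222, minus strand). It had 58.0 and 45.9 CPM in 2xSCS70, against 39.3 and 46.7 CPM in 2xSCS2F10. The lines overlapped, since 2xSCS70 replicate 2 lay below 2xSCS2F10 replicate 2. The log2 difference was 0.27 (SE 0.18, adjusted p = 0.262). It was 0.14 without 2xSCS2F10 replicate 1 and 0.39 without its replicate 2. Unlike in CPM, the deposited RPKM of Jun did not overlap, at 15.9 and 11.4 in 2xSCS70 and 9.52 and 9.46 in 2xSCS2F10. A noncoding gene, Junos, overlaps Jun on the other strand in the GENCODE annotation and has no row in the tables.

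The stretches before Fos and Jun are shown because they hold known kinds of signal-responsive elements although the 2 genes differed in their call. The sequences are the 250 bases before the RefSeq start on GRCm38.p6, each read 5′ to 3′ on the strand of its gene, with matches to the motifs named below in capitals. In the Fos stretch (chr12:85473640-85473889, plus strand) the capitals are 2 copies of TGACG, the core of the cAMP response element bound by CREB-type factors, and the TATA box TATAAA. In the Jun stretch (chr4:95052223-95052472, minus strand) they are a CCAAT box and TGACATCA, the element at which Jun dimers act on their own gene.
Fos: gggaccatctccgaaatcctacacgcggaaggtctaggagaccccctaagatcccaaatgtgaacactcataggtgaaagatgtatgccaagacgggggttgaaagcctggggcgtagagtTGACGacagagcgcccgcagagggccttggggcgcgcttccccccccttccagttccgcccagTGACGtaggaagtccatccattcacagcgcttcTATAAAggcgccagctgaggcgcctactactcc
Jun: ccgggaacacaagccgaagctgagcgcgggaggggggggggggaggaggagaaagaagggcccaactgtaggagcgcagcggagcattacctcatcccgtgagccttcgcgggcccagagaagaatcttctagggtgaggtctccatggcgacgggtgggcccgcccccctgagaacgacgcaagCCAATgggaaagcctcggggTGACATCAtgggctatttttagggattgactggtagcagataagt
RefSeq promoters were at hand for 6 of the 10 genes (Fos, Jun, Ier3, Dusp1, Dusp5 and Dusp6), and 8 motifs were searched on both strands, positions being counted back from the start. TGACG lay at -129 and -66 in Fos and TATAAA at -33. TGACATCA lay at -45 and CCAAT at -65 in Jun. Among 32851 promoter stretches of this length, TGACG was found in 17.8%, TATAAA in 12.4%, CCAAT in 33.8% and TGACATCA in 2.93%. The AP-1 site TGANTCA (6.75% of all stretches) and the EGR site GCGNGGGCG (4.70%) were found in 0 of the 6. A match of letters does not show that a factor binds there, and sites farther from the start were not searched.

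Egr1, a zinc finger factor of the same early wave, had 17.2 and 17 CPM in 2xSCS70, against 30.1 and 19.7 CPM in 2xSCS2F10. Both 2xSCS70 values were below both 2xSCS2F10 values, but the gap to 2xSCS2F10 replicate 2 was small and the call was not made (log2 -0.54, SE 0.23, adjusted p = 0.121). The value depended on which 2xSCS2F10 library was used, at -0.82 without replicate 2 and -0.22 without replicate 1. In RPKM the lines overlapped, at 4.91 and 4.37 in 2xSCS70 and 7.55 and 4.14 in 2xSCS2F10.

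The 2 genes named IER, which share a mode of induction but are not related in sequence, differed. Ier2, a small nuclear protein of early growth factor responses (chromosome 8, 84661331 to 84662852, minus strand), had 27.2 and 20.9 CPM in 2xSCS70, against 17.7 and 14.4 CPM in 2xSCS2F10. All 2xSCS70 values were above all 2xSCS2F10 values, yet the difference missed the threshold (log2 0.58, SE 0.20, adjusted p = 0.0724). The log2 difference of Ier2 was 0.72 without 2xSCS2F10 replicate 1 and 0.43 without its replicate 2. Ier3, also called IEX-1, is an ERK substrate that influences cell survival (chromosome 17, 35821713 to 35822911, plus strand). It had 13.4 and 11.3 CPM in 2xSCS70, against 62.9 and 81.8 CPM in 2xSCS2F10, or 12.3 ± 1.45 and 72.3 ± 13.4 CPM on average (SD, n = 2 each), with a wide gap between the lines. This was the largest decrease of the 10 genes, 5.86-fold (log2 -2.55, SE 0.19, adjusted p = 0.00143), and the call held in all 15 alternatives tried. Ranked by RPKM within each library, Ier3 stood at the 76.4 and 74.0 percentiles of all rows in 2xSCS70 and at the 94.6 and 95.8 percentiles in 2xSCS2F10, the highest of the 10 genes there. The ratio of Ier3 to Ier2 in RPKM was 0.686 and 0.754 in 2xSCS70 and 4.95 and 7.91 in 2xSCS2F10, so that the order of these genes was turned between the lines.

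All 4 phosphatases were lower in 2xSCS70, with the larger estimates for Dusp1 and Dusp4. Dusp1 encodes MKP-1, a nuclear enzyme that acts on p38 and JNK as well as ERK (chromosome 17, 26505591 to 26508472, minus strand). It had 10.2 and 8.92 CPM in 2xSCS70, against 49.2 and 42.4 CPM in 2xSCS2F10, or 9.56 ± 0.903 and 45.8 ± 4.81 CPM on average (SD, n = 2 each). The difference was 4.79-fold (log2 -2.26, SE 0.16, adjusted p = 0.00117), and the call held in all 15 alternatives. Dusp4 encodes MKP-2, a nuclear phosphatase of ERK and JNK (chromosome 8, 34807610 to 34819894, plus strand). It had 8.09 and 6.58 CPM in 2xSCS70, against 24.1 and 24.8 CPM in 2xSCS2F10, a 3.34-fold difference (log2 -1.74, SE 0.17, adjusted p = 0.00279). Leaving out 2xSCS70 replicate 1 gave an adjusted p = 0.0503 and leaving out its replicate 2 gave 0.0611.

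The phosphatases selective for ERK had the smaller estimates, a difference between genes that was not tested. Dusp5, the nuclear one (chromosome 19, 53529318 to 53541322, plus strand), had 9.0 and 6.78 CPM in 2xSCS70, against 13.4 and 13.4 CPM in 2xSCS2F10 (1.70-fold, log2 -0.76, SE 0.21, adjusted p = 0.0384). Dusp6, the cytoplasmic MKP-3 and a widely used readout of ERK activity (chromosome 10, 99263231 to 99267489, plus strand), had 25.6 and 26 CPM in 2xSCS70, against 60.5 and 39.7 CPM in 2xSCS2F10 (1.94-fold, log2 -0.96, SE 0.23, adjusted p = 0.027). The lines did not overlap for either gene, but 2xSCS2F10 replicate 1 was well above replicate 2 for Dusp6. The calls of both ended without 2xSCS70 replicate 1 (adjusted p = 0.141 for Dusp5 and 0.194 for Dusp6), without its replicate 2 (0.281 and 0.19), on log2(RPKM + 1) values (0.17 and 0.143), on log2(RPKM + 0.1) values (0.151 and 0.12) and in a test against a 1.5-fold change (0.253 and 0.12). Dusp5 also missed the threshold under upper quartile scaling (0.0503). The row of Dusp5 starts 209 bases after and ends 1109 bases before the gene in the GENCODE annotation. It overlaps Snora19, which had at most 3 fragments in any library, and the GENCODE antisense gene AC137853.2. Rows of other members also stop short of that annotation, by up to 53656 bases for Dusp1 at its high-coordinate end.

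**Figure D2:**
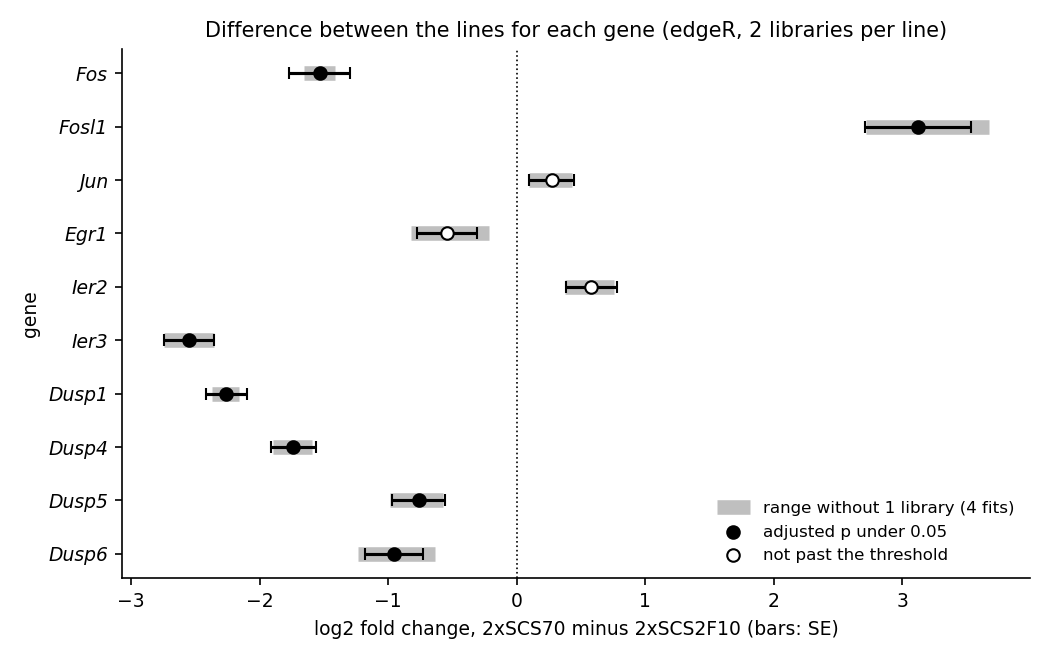
Log2 fold change of each gene, 2xSCS70 minus 2xSCS2F10, with its SE (black bars) and the range over the 4 fits that each leave out 1 library (grey). Filled circles passed the adjusted threshold of 0.05; no range crosses 0, and the values run from -2.55 for Ier3 to 3.12 for Fosl1.

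The stretches before Dusp1 and Dusp5 are shown because each holds an element that few promoters have. The 250 bases before Dusp1 (chr17:26508473-26508722, minus strand) hold a full cAMP response element, TGACGTCA, from -143, which includes 2 of the 3 TGACG matches found there. Those before Dusp5 (chr19:53528895-53529144, plus strand) hold 2 CArG boxes, the binding element of serum response factor, side by side from -82 and -72, followed by TGACG on the other strand.
Dusp1: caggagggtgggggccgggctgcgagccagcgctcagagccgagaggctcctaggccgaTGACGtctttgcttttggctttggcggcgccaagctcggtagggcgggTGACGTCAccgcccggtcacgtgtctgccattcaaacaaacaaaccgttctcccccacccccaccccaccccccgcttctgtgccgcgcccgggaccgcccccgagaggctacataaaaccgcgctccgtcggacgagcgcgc
Dusp5: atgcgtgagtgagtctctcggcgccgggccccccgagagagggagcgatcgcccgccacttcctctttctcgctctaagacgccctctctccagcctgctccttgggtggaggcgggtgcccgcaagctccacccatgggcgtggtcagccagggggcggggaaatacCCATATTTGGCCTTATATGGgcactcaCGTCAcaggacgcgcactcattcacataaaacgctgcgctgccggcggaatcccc
The full TGACGTCA was found in 1.55% of the 32851 stretches and in 1 of the 6 examined. A CArG box was found in 1.47% of all stretches and in 1 of the 6. The Dusp6 and Ier3 stretches held CCAAT boxes and none of the other motifs searched.

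Set against their families by RPKM, the genes took different shares in the lines. Fosl2, another Fos-related gene, made up 91.6% and 91.8% of the summed RPKM of the 4 Fos family genes in 2xSCS70 and 93.2% and 95.6% in 2xSCS2F10. Fos made up 2.29% and 2.92% in 2xSCS70 and 5.70% and 3.78% in 2xSCS2F10. Fosl1 made up 5.55% and 4.83% in 2xSCS70 and 0.556% and 0.218% in 2xSCS2F10. The ratio of Fosl1 to Fos in RPKM was therefore 2.42 and 1.66 in 2xSCS70 and 0.0976 and 0.0576 in 2xSCS2F10, with Fosl1 above Fos in both 2xSCS70 libraries and below it in both 2xSCS2F10 libraries. Within the Jun family, Junb was at 61.1 and 44.7 RPKM in 2xSCS70 and at 20.9 and 24.4 RPKM in 2xSCS2F10, and exceeded Jun in all 4 libraries. Of the 10 MAP kinase phosphatase genes, Dusp1, Dusp4, Dusp5 and Dusp6 held 44.9% and 43.4% of the summed RPKM in 2xSCS70 and 72.2% and 70.2% in 2xSCS2F10. The other 6 summed to 27.4 and 23.2 RPKM in 2xSCS70 and 20.4 and 15.8 RPKM in 2xSCS2F10. In TMM-scaled CPM the difference was smaller in proportion, with sums of 126 and 119 in 2xSCS70 and 111 and 106 in 2xSCS2F10. These shares are descriptions with no test.

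**Figure D3:**
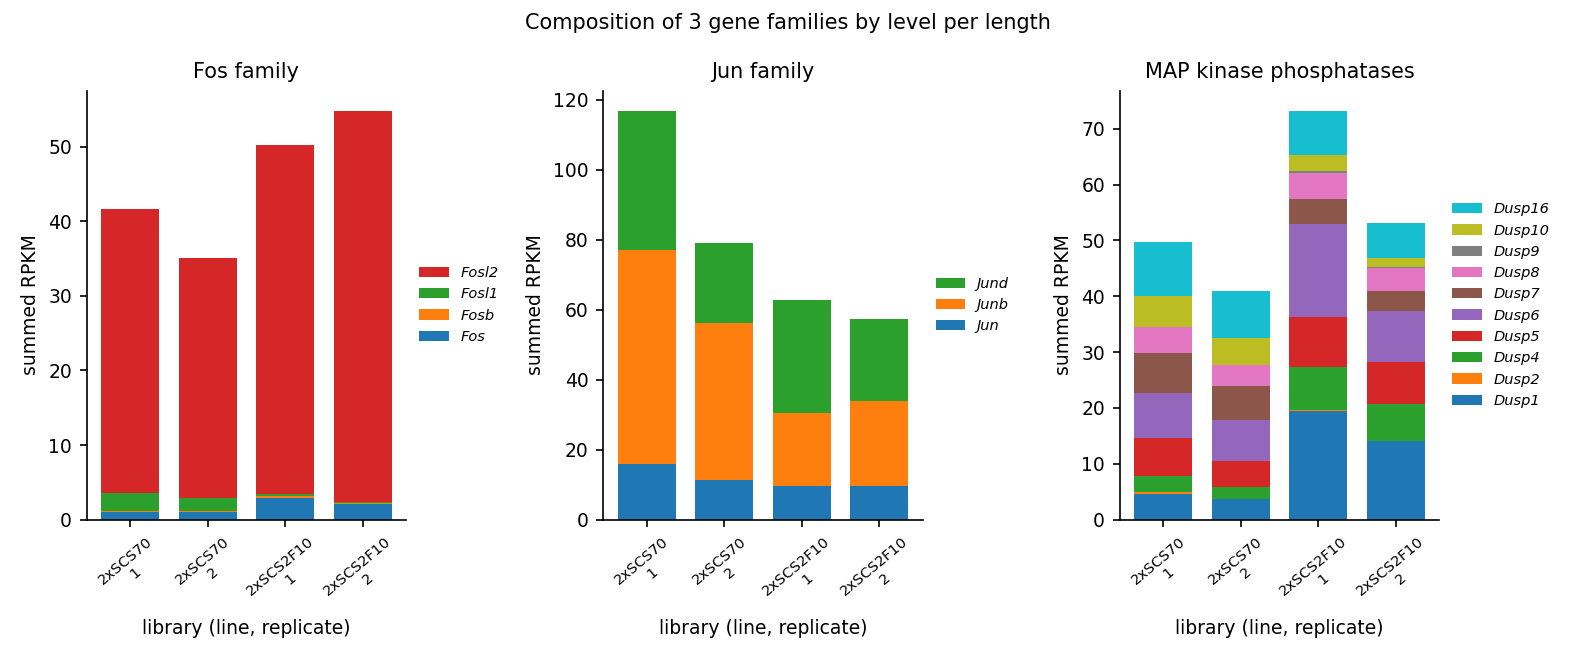
Summed RPKM per library of the Fos family (4 genes), the Jun family (3 genes) and the MAP kinase phosphatases (10 genes), stacked by gene, with 2xSCS70 at the left. Dusp1 is at 4.6 and 3.63 RPKM in 2xSCS70, against 19.5 and 14.1 RPKM in 2xSCS2F10, and Dusp4, Dusp5 and Dusp6 are also lower in 2xSCS70. Fosl2 fills most of the Fos family bar in every library.

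The members varied within a line as well, and not by a common step. Between replicate 2 and replicate 1 of 2xSCS70, Ier2 changed by a ratio of 0.77 (95% interval 0.687 to 0.863), Jun by 0.792 (0.733 to 0.855) and Dusp5 by 0.754 (0.615 to 0.921), while Egr1 (0.985) and Dusp6 (1.02) were level. In 2xSCS2F10 the same ratio was 0.655 (0.574 to 0.747) for Egr1 and 0.656 (0.598 to 0.72) for Dusp6, against 1.3 (1.21 to 1.4) for Ier3 and 1.19 (1.08 to 1.31) for Jun. Egr1 and Dusp6 thus shared the lowest ratios with an interval below 1 in 2xSCS2F10 and were the steadiest genes in 2xSCS70. The median absolute log2 difference of the 10 genes between replicates was 0.27 in 2xSCS70, where that of all tested genes was 0.13, and 0.27 in 2xSCS2F10, where that of all tested genes was 0.29. The exact binomial intervals cover counting error only. The table headers end in L1 for both replicates 1 and in L2 for both replicates 2, and the meaning is not stated. Compared within each of these labels, the differences of Dusp1 were -2.27 and -2.25 on the log2 scale, of Ier3 -2.24 and -2.85, of Fos -1.76 and -1.31, of Fosl1 2.87 and 3.54, of Dusp4 -1.58 and -1.92, of Dusp6 -1.24 and -0.61 and of Dusp5 -0.58 and -0.98. Those of Ier2 were 0.62 and 0.54, of Egr1 -0.80 and -0.21 and of Jun 0.56 and -0.03, so that only Jun changed sign.

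Other genes of the early response were lower more often than higher in 2xSCS70. This list and those that follow were also chosen with earlier results of these data known, so their shares are descriptions. Of 26 tested immediate early genes outside the 10, 12 were lower (46.2%), 2 were higher (7.69%) and 12 did not pass. Among all tested genes 21.8% were lower and 18.8% higher. The median log2 difference of the list was -0.66, beside 0.02 for all tested genes. Among the lower were the zinc finger factor Klf6 (171 and 172 CPM in 2xSCS70, against 323 and 324 CPM in 2xSCS2F10, adjusted p = 0.00431), the kinase Sik1 (log2 -0.98, adjusted p = 0.00507) and the shear-responsive factor Klf2 (log2 -2.0, adjusted p = 0.00702). The higher, named after their values were seen, were Egr2 (log2 1.85, adjusted p = 0.0168) and Ier5l (log2 0.96, adjusted p = 0.0401). Of 9 tested AP-1 and ATF genes, 3 were lower (33.3%) and 1 was higher (11.1%), with a median of -0.08. That median was above 0 under upper quartile scaling (0.01), with no filter (0.11), on either RPKM scale (0.13), without 2xSCS70 replicate 2 (0.21) and without 2xSCS2F10 replicate 1 (0.02). In the same order the median of all tested genes was 0.11, 0.04, 0.15 and 0.25 (pseudocounts of 1 and 0.1), 0.02 and 0.04. Among these fits the AP-1 median exceeded it only with no filter and without 2xSCS70 replicate 2. Atf3, a stress-induced factor, had 12.8 and 10.6 CPM in 2xSCS70, against 29.4 and 24.3 CPM in 2xSCS2F10 (log2 -1.20, adjusted p = 0.00807). Fosl2 was lower (log2 -0.75, adjusted p = 0.0268) and Junb higher (log2 0.96, adjusted p = 0.022). Without either 2xSCS70 library 0 genes of both lists passed by edgeR. With 2xSCS70 replicate 1 or 2 left out, the median of the early genes was -0.895 and -0.50, beside 0.006 and 0.02 for all tested genes. The median of the early genes was -0.63 without 2xSCS2F10 replicate 1 and -0.59 without its replicate 2. That of all tested genes was 0.04 and 0.03 in these fits. The median of the AP-1 genes was -0.18 without 2xSCS2F10 replicate 2. On either RPKM scale, 2 of the early genes were higher and 5 lower. All tested genes then gave 3218 higher and 1828 lower with a pseudocount of 1, and 3377 and 1964 with one of 0.1.

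Calls among the remaining MAP kinase phosphatases went in both directions, with 1 higher and 1 lower (16.7% each). Among all tested genes 18.8% were higher and 21.8% lower. Of 6 tested, Dusp10, which acts on p38 and JNK, was higher (17.4 and 16.6 CPM in 2xSCS70, against 10.4 and 6.51 CPM in 2xSCS2F10, log2 1.01, adjusted p = 0.0347). Dusp9, named after its value was seen because it was the other call, was lower (0.145 and 0.0411 CPM in 2xSCS70, against 1.08 and 1.21 CPM in 2xSCS2F10, adjusted p = 0.0107). It was low in both lines, with 4 and 1 fragments in 2xSCS70, around the floor of 3, and 21 and 23 in 2xSCS2F10. Dusp7, a cytoplasmic ERK phosphatase close to Dusp6 and also named after its value was seen, had 26.3 and 24.2 CPM in 2xSCS70 and 19.1 and 17.6 CPM in 2xSCS2F10 (log2 0.46, adjusted p = 0.0506). The median of the 6 was 0.30. With 2xSCS70 replicate 1 or 2 left out, the adjusted p was 0.213 and 0.194 for Dusp10 and 0.0695 and 0.101 for Dusp9. The median of the 6 was 0.33 without 2xSCS2F10 replicate 1 and 0.24 without its replicate 2.

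Of 13 tested genes that are known to follow ERK activity or to restrain it, 6 were lower (46.2%) and 0 higher, with a median of -0.58. Among all tested genes 21.8% were lower and 18.8% higher. At an unadjusted p under 0.05, 7 of the 13 were lower and 0 higher, but the share of all tested genes at that threshold was not counted. By DESeq2 and limma-voom 0 of the 13 were higher, where 2851 and 2897 of all tested genes were. The median of the 13 was -0.61 without 2xSCS2F10 replicate 1 and -1.08 without its replicate 2. The count of 0 higher held in neither of these fits. Spry4, a Sprouty inhibitor of Ras activation, had 1.09 and 1.52 CPM in 2xSCS70, against 11.2 and 15.6 CPM in 2xSCS2F10 (log2 -3.36, SE 0.31, adjusted p = 0.00222), and its call held without 2xSCS70 replicate 1 (0.0486) and without its replicate 2 (0.0411). Spry2 had 4.43 and 4.23 CPM in 2xSCS70, against 23.2 and 16.3 CPM in 2xSCS2F10 (log2 -2.19, adjusted p = 0.00329). The receptor Epha4 had 84.8 and 90.2 CPM in 2xSCS70, against 231 and 299 CPM in 2xSCS2F10 (log2 -1.60, adjusted p = 0.00309). Epha4 missed the threshold with either 2xSCS70 library left out (0.0708 and 0.066), as did Spry2 (0.0668 and 0.0678), and Spry4 was then the 1 gene of the list that passed.

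Calls in the kinase cascade itself went in both directions. Of 18 tested genes of the Ras to ERK cascade, 5 were lower and 2 higher, with a median of -0.05. The calls were 27.8% and 11.1% of the list, beside 21.8% and 18.8% of all tested genes. Braf, the Raf kinase with the highest basal activity, had 63.9 and 66.6 CPM in 2xSCS70, against 166 and 176 CPM in 2xSCS2F10 (log2 -1.39, SE 0.11, adjusted p = 0.00165). The docking protein Gab1 (log2 -1.08, adjusted p = 0.00784) and the GTPase Nras (log2 -0.76, adjusted p = 0.00859) were also lower. Mapk3, which encodes an ERK kinase and was chosen after its values were seen, had 84.9 and 73.1 CPM in 2xSCS70, against 130 and 92.2 CPM in 2xSCS2F10, and did not pass (adjusted p = 0.11). Without 2xSCS70 replicate 1 and without its replicate 2, the median of the 18 was -0.07 and -0.07. The median of the 18 was -0.16 without 2xSCS2F10 replicate 1 and -0.01 without its replicate 2. Levels of transcripts do not measure the phosphorylation of the kinases.

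**Figure D4:**
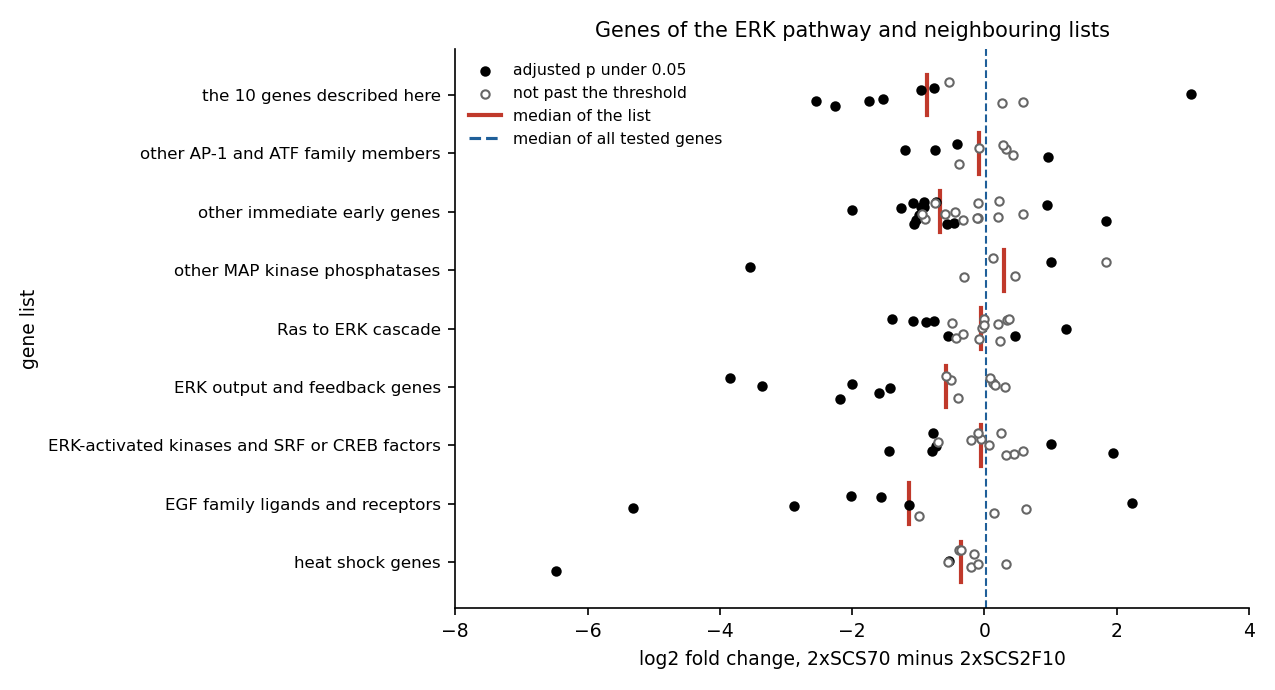
Log2 fold change (2xSCS70 minus 2xSCS2F10) of every tested gene of the 10 genes described and of 8 other lists, 1 list per line, with calls filled, list medians in red and the median of all tested genes, 0.02, dashed. The medians are -0.86 for the 10 genes, -0.66 for the other immediate early genes, 0.30 for the other phosphatases and -0.05 for the cascade. The lowest is -1.14 for the EGF family.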

How the data were processed

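Per the labels' protocols, RNA came from a Qiagen miRNeasy extraction and was built into Illumina TruSeq mRNA libraries, a kit that does not mark strand. TopHat2 2.0.6, Bowtie and HTSeq with build mm10 are named in the submitters' processing notes, while the gene annotation was not given in the sources used here. For each library the authors deposited raw counts and RPKM of every gene, per the file headers. All deposited counts were even, so 1 fragment was taken as 2 counts. The RPKM denominators were 62928743 and 61554553 reads for 2xSCS70 and 50468212 and 59036269 for 2xSCS2F10.

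Counts were tested with edgeR 4.0.16 in R 4.3.3 (quasi-likelihood, TMM, filterByExpr, 14496 genes tested and 8862 not), as 2xSCS70 minus 2xSCS2F10. The SE is the absolute log2 change divided by the square root of F. The common biological coefficient of variation was 20.4%. Sampling noise alone would give replicates a chi-square close to its degrees of freedom, and the ratio was 48.6 for 2xSCS70 and 118 for 2xSCS2F10, so no library was a repeat deposit. The test was checked on simulated counts. Intervals of replicate ratios are exact binomial at 95%. Alternatives were scaling by RLE or upper quartile, a filter at 5 CPM or none, counts halved, leaving out each library, DESeq2 1.42.0, limma-voom and log2 RPKM with limma 3.58.1, a test against 1.5-fold, and a replicate block. Named genes were the 10 members and, from each of 8 lists, up to 3 called genes by adjusted p whose mean reached 1 CPM. Members and lists were chosen with earlier results of these data known. In the replicate 1 data, 25 gene names turned into dates were restored. Promoters came from RefSeq (GRCm38.p6). Python 3.11.15 with pandas 2.3.3, scipy 1.17.1 and matplotlib 3.10.9 was used. The gene coding for Hras, fixed in a list, had no row under that name and was not analysed here.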

Additional observations from a re-analysis of the deposited data

How the results depend on the processing

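Over 15 alternatives the 10 genes gave 148 values, of which 127 stayed on the same side of the threshold, 17 lost their call, 4 gained one and 0 changed sign. Fos and Fosl1 could not be fitted under the filter at 5 CPM, which removed them, so that 0 of the 10 genes passed as higher there. Leaving out 1 library at a time gave 764 to 9673 called genes (248 to 4809 higher, 516 to 4864 lower) and 2 to 10 called members (0 to 3 higher, 2 to 7 lower); the spread then came from 1 pair alone, and the remaining single library was assumed to share the spread of the other line. The log2 difference of Fosl1 was 2.96 without 2xSCS70 replicate 1 and 3.27 without its replicate 2. The test against a 1.5-fold change called 3094 genes (1338 higher, 1756 lower), and lower genes numbered 1828 on log2(RPKM + 1) and 1964 on log2(RPKM + 0.1) values. The median of all genes moved to 0.11 under upper quartile scaling and to 0.15 and 0.25 on these RPKM values. With a replicate block 5222 genes and 7 members were called, the same number of members as without it; the numbers are not stated to pair libraries, and the deviations of same-numbered libraries correlated at 0.054 across genes. For the other lists 77 of 120 counts were within 1.5 times the main one. With 12 and 6 fragments in 2xSCS2F10, counting error limits the fold of Fosl1.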

Other observations

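Ligands and receptors of the EGF family, which start the ERK signal, were lower more often than higher in 2xSCS70. Of 9 tested genes 5 were lower (55.6%) and 1 higher (11.1%), beside 21.8% and 18.8% of all tested genes. The lower were the ligands Hbegf (log2 -1.57), Btc and Egf and the receptors Egfr (log2 -1.14) and Erbb3 (log2 -2.88). Hbegf, Egfr and Erbb3 were named after their values were seen. The 1 higher was the ligand Tgfa. The median was -1.14, beside 0.02 for all tested genes. The median of the list was -1.40 without 2xSCS2F10 replicate 1 and -1.28 without its replicate 2. Tgfa, a ligand of the EGF receptor, had 24.9 and 27.3 CPM in 2xSCS70, against 6.99 and 4.04 CPM in 2xSCS2F10 (log2 2.24, SE 0.29, adjusted p = 0.0056). Egf had 1.60 and 1.40 CPM in 2xSCS70, against 6.68 and 5.46 CPM in 2xSCS2F10 (log2 -2.02, adjusted p = 0.0052). Btc, or betacellulin, had 0.798 and 0.863 CPM in 2xSCS70, against 52.3 and 13.6 CPM in 2xSCS2F10 (log2 -5.31, SE 0.76, adjusted p = 0.0071), with values of -4.04 without 2xSCS2F10 replicate 1 and -5.98 without its replicate 2. With 2xSCS70 replicate 1 left out the adjusted p of Tgfa, Egf and Btc was 0.0702, 0.0835 and 0.0932, and with its replicate 2 left out 0.076, 0.0924 and 0.0897.

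Of 15 tested kinases and factors downstream of ERK, 4 were lower and 2 higher in 2xSCS70, with a median log2 difference of -0.05. The calls were 26.7% and 13.3% of the list, beside 21.8% and 18.8% of all tested genes. The median was -0.02 without 2xSCS2F10 replicate 1 and 0.004 without its replicate 2. The ribosomal S6 kinase Rps6ka2 had 22.2 and 20.8 CPM in 2xSCS70, against 61.0 and 55.4 CPM in 2xSCS2F10 (log2 -1.44, adjusted p = 0.00222). Its relative Rps6ka1 had 19.2 and 17.6 CPM in 2xSCS70, against 5.5 and 4.04 CPM in 2xSCS2F10 (log2 1.95, adjusted p = 0.00373). Elk1, which carries the ERK signal to serum response elements, had 51.9 and 47.5 CPM in 2xSCS70, against 22.9 and 26.7 CPM in 2xSCS2F10 (log2 1.0, adjusted p = 0.00697). For Rps6ka2, Rps6ka1 and Elk1, leaving out 2xSCS70 replicate 1 gave an adjusted p of 0.0611, 0.0708 and 0.108, and leaving out its replicate 2 gave 0.0648, 0.0631 and 0.0895.

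Heat shock genes were examined because 2xSCS70 was kept at the higher temperature. Of 9 tested heat shock genes 2 were lower (22.2%) and 0 higher in 2xSCS70 by edgeR, with a median log2 difference of -0.35. Among all tested genes 21.8% were lower and 18.8% higher. At an unadjusted p under 0.05, 0 heat shock genes were higher, but the share of all tested genes at that threshold was not counted. By DESeq2 and limma-voom 0 heat shock genes were higher, where 2851 and 2897 of all tested genes were. The median was -0.41 without 2xSCS2F10 replicate 1 and -0.22 without its replicate 2. The count of 0 higher did not hold without 2xSCS2F10 replicate 1. The small heat shock protein gene Hspb1 had 3.01 and 2.47 CPM in 2xSCS70, against 110 and 377 CPM in 2xSCS2F10 (log2 -6.47, SE 0.72, adjusted p = 0.00371), with values of -7.11 without 2xSCS2F10 replicate 1 and -5.33 without its replicate 2. Hspe1 had 129 and 135 CPM in 2xSCS70, against 211 and 169 CPM in 2xSCS2F10 (log2 -0.53, adjusted p = 0.0422). Neither Hspb1 (adjusted p = 0.066 and 0.0666) nor Hspe1 (0.283 and 0.249) passed with 2xSCS70 replicate 1 or 2 left out.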
